A study of Mus musculus with 244 samples.

Results

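Baseline plaque macrophages that carried the mRNA of fibronectin are described here against baseline macrophages that did not. Of 125 baseline cells, 64 had an Fn1 RPKM of 1 or more (reads scaled by transcript length and library size) and are called Fn1-listed cells, and 61 had less. The cells were chosen by their Fn1 RPKM, so the Fn1 values only describe the choice. They ran from 1.08 to 708 RPKM among the 64 cells, with a median of 35.4. The 3 cells just inside the threshold had 1.08, 1.20 and 1.29 RPKM, and the 3 just outside had 0.942, 0.805 and 0.760. Of the 61 other cells, 35 were at exactly 0 and 26 lay above 0.

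Fibronectin is a secreted glycoprotein of the extracellular matrix that cells bind through integrins and syndecans. Besides fibroblasts and the liver, macrophages make it, and its mRNA is known as a mark of some tissue and wound macrophages. Macrophages in an atherosclerotic plaque come largely from blood monocytes that enter through the chemokine receptor Ccr2, although some descend from cells resident in the artery wall.

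The baseline cells came from the aortic arches of Apoe-/- mice, which lack apolipoprotein E and had eaten a high-fat diet over 16 weeks. The regression cells came from such arches that had been grafted into WT mice on chow and were removed 3 days later. In both groups the arches were digested and CD45+ CD11b+ F4/80+ cells were sorted, and 1 library holds 1 cell. Both groups therefore share the Apoe-/- donor and its diet, while the host of a regression graft has a working Apoe gene and can supply its own blood monocytes. The labels name no animal, so cells cannot be assigned to mice and each group counts as 1 sample: no p-value or standard error is given, SDs are over cells, and intervals on shares are exact (Clopper-Pearson) 95% intervals that cover counting error only.

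The 64 cells were spread over both stretches of baseline sample numbers. They made up 34 of 69 cells numbered 21 to 92 (49.3%, interval 37.0 to 61.6) and 30 of 56 cells numbered 112 to 167 (53.6%, interval 39.7 to 67.0). Whether the stretches are separate runs or animals is not stated in the labels, and they are used here as separate readings of the same comparison. Before any comparison, 3 pairs of baseline libraries (57 and 58, 64 and 65, 70 and 71) that correlated at 0.992, 0.996 and 0.997, against at most 0.654 for any other pair, were averaged as 1 cell each.

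Fn1-listed cells listed somewhat more genes, although with cells split at Fn1 above 0 against exactly 0 the difference in medians turned to -256.5. They had a median of 2616 genes at RPKM of 1 or more (range 1095 to 4378), against 2409 in the other baseline cells (range 1252 to 4045) and 2360 in 113 regression cells. The excess was present in cells 21 to 92 (medians of 2597.5 and 2389) and in cells 112 to 167 (2903.5 and 2494.5). It was not even along the Fn1 scale. The 22 cells with an Fn1 RPKM of 1 to 10 had a median of 2013 genes, fewer than the cells with Fn1 under 1, the 19 cells from 10 to 100 had 2491, and the 23 cells at 100 or more had 3177. Within the 64 cells, Fn1 level and number of genes listed had a Spearman rho of 0.55, both being read from the same libraries. Every difference was therefore also read within 3 equal parts of the cells by genes listed: 1095 to 2228 genes (19 Fn1-listed and 23 other cells), 2273 to 2901 (19 and 22) and 2925 to 4378 (26 and 16). The part of library complexity in the differences was not tested further. Sequencing depth, which could be estimated, roughly, for 115 of 244 libraries, had a median of 1.01 M reads in 31 Fn1-listed cells and 1.21 M in 23 other baseline cells. Ribosomal protein genes took a median of 9.64% of the summed RPKM in Fn1-listed cells and 8.80% in the others, and mitochondrial genes took 7.97% and 6.60%.

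**Figure D1:**
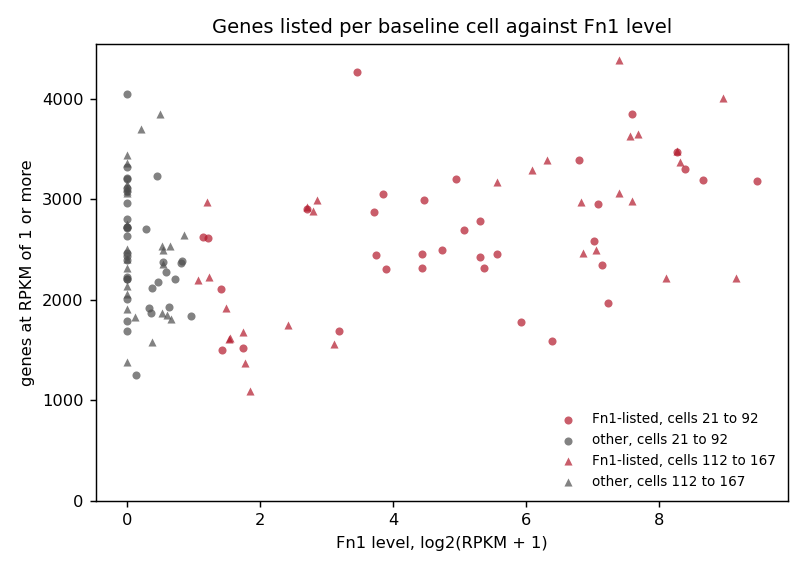
Genes at RPKM of 1 or more (y axis, count) against Fn1 level (x axis, log2(RPKM + 1)) for each of 125 baseline cells; red marks the 64 Fn1-listed cells, grey the 61 others, circles cells 21 to 92 and triangles cells 112 to 167. Red points to the right sit higher: the median is 3177 genes at an Fn1 RPKM of 100 or more and 2013 genes between 1 and 10.

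The label of macrophage held for these cells. At least 3 of 10 macrophage markers were listed in 62 of 64 Fn1-listed cells (96.9%, interval 89.2 to 99.6) and in 61 of 61 other cells. The summed level of these markers, in log2(RPKM + 1) units, ran from 9.14 to 83.8 in Fn1-listed cells with a median of 68.5, and from 17.2 to 86.0 in the others with a median of 70.4. Most of the markers were a little lower in Fn1-listed cells: of 10, 9 had a lower mean, with a median difference of -0.70. Cd68, a lysosomal glycoprotein, was at 7.96 ± 3.30 against 9.01 ± 1.87 (mean log2 level ± SD), and Csf1r, the receptor of the macrophage growth factor Csf1, at 6.17 ± 2.36 against 6.90 ± 2.17. Itgam, the CD11b of the sort, was the exception, with a mean of 5.14 in Fn1-listed and 4.29 in other cells. Adgre1, the F4/80 of the sort, was at 6.32 and 6.63. Over the parts from the fewest to the most genes listed, Adgre1 differed by -3.10, 1.35 and 0.74. Itgam differed by -0.42, 0.87 and 1.91.

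Markers of fibroblasts, a known source of Fn1, were rare in these cells. Of the 64 cells, 1 listed 3 or more of 5 fibroblast markers (1.56%, interval 0.0396 to 8.40), as did 0 of 61 other cells (interval up to 5.87%). That cell, number 152, had an Fn1 RPKM of 1.34, near the threshold, and also listed 8 of 10 macrophage markers. The summed level of the fibroblast markers was 0 in the median cell of both groups and reached 30.1 in Fn1-listed and 8.68 in other cells, and Pdgfra was listed in no baseline cell. No Fn1-listed cell listed 3 of the markers of neutrophils, eosinophils, mast cells, B cells, T and NK cells, endothelium, smooth muscle or mesothelium, and 2 of 64 did so for conventional dendritic cells, against 2 of 61 other cells. Leaving out the 3 Fn1-listed and 4 other cells with 3 or more fibroblast, neutrophil or dendritic cell markers gave the leading differences at a similar size, with 3.13 for Retnla, 2.65 for Ear2 and 1.76 for Ccr2.

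Across the transcriptome the Fn1-listed cells were not a sharply separate population. A difference below is the mean log2(RPKM + 1) of Fn1-listed cells minus that of the other baseline cells, a scale that understates the difference of low genes. It was read for the 4091 genes that 25% or more of either group listed. Its median over these genes was 0.07, and 56.4% of them were higher in Fn1-listed cells. Across genes, the differences in the 2 stretches of cells correlated at a Pearson r of 0.12 (Spearman rho of 0.11, 4091 genes, which are not independent replicates), and 54.9% of genes had the same sign in both. The difference of a gene in 1 stretch therefore said little about its difference in the other. A gene is counted as passing the size rule where its difference was at least 1 in size and had the same sign in each stretch and after weighting within the 3 parts by genes listed. By this rule 135 genes (3.3%) were higher in Fn1-listed cells and 102 (2.49%) were lower. Members of the gene lists below were read from 5% of either group, but only those at 25% could pass the size rule. The shares over all genes set beside them are those of the genes read at 25%. A member that reached 5% in 1 group only can owe its sign to that filter.

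The genes that did recur formed a short list. In each stretch 3945 genes were ranked. Among the 100 highest differences of each stretch, 11 genes were common to both: Retnla, S100a4, Ear2, Gda, Hnrnpab, Ccl6, Aldh9a1, Tmem167, Tmem147, Ccr2 and S100a11. Among the 100 lowest, 6 were common: Asah1, Dpysl2, Ccl4, St3gal6, Pld4 and Bcl2a1d. How many genes unrelated rankings would share was not tested, so the counts of 11 and 6 only describe the overlap. Of the 25 genes highest in cells 21 to 92, 17 (68.0%) were also higher in cells 112 to 167, where 51.2% of all genes were higher. Of the 25 highest in cells 112 to 167, 17 (68.0%) were higher in cells 21 to 92, where 56.8% of all genes were. The lowest genes of cells 21 to 92 did not carry over, while those of cells 112 to 167 did. Of the 25 lowest in cells 21 to 92, 12 (48.0%) were lower in cells 112 to 167, where 48.8% of all genes were lower. Of the 25 lowest in cells 112 to 167, 17 (68.0%) were lower in cells 21 to 92, where 43.2% of all genes were.

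**Figure D2:**
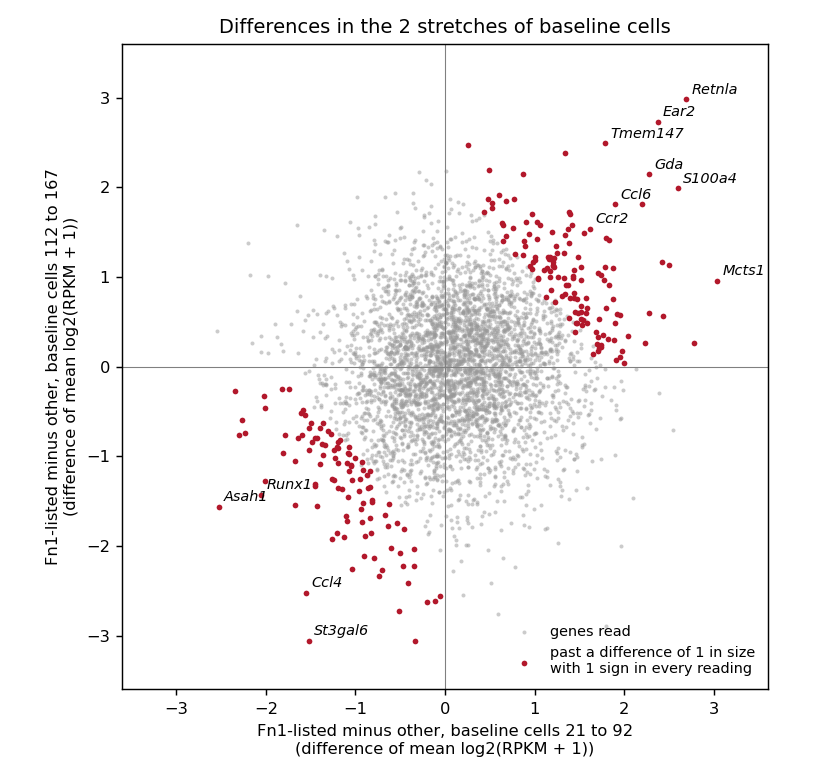
Difference of mean log2(RPKM + 1), Fn1-listed minus other baseline cells, in cells 21 to 92 (x axis) and cells 112 to 167 (y axis), 1 point for each of 4091 genes; red points pass the size rule (135 higher and 102 lower). The grey cloud has little slope (r of 0.12), and Retnla, Ear2, S100a4, Gda, Tmem147, Ccl6 and Ccr2 lie far out in the upper right corner.

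Retnla (chr16:48842551-48844461, plus strand, mm10) had the largest difference. It encodes RELM-alpha, a small secreted protein known from macrophages exposed to interleukin-4 and from those of body cavities. Its RPKM ran from 0 to 30769.9 with a median of 3.09 in Fn1-listed cells, and from 0 to 12615 with a median of 0 in the other baseline cells. It was listed in 36 of 64 Fn1-listed cells (56.3%, interval 43.3 to 68.6) and in 21 of 61 others (34.4%, interval 22.7 to 47.7). The mean log2 level was 4.55 ± 5.40 against 1.72 ± 3.15, a difference of 2.83, with 2.69 in cells 21 to 92 and 2.98 in cells 112 to 167. The groups overlapped widely, since both held many cells at 0, and what set the Fn1-listed cells apart was a set of cells at very high values. The difference depended on the number of genes listed: it was 0.11 among the cells with the fewest genes, 2.41 in the middle part and 5.40 among the cells with the most.

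Ear2 (chr14:44102654-44103534, plus strand), a secreted ribonuclease of the eosinophil-associated family, followed with a difference of 2.55. It was listed in 26 of 64 Fn1-listed cells (40.6%, interval 28.5 to 53.6) and in 11 of 61 others (18.0%, interval 9.36 to 30.0), and its highest RPKM was 13443 and 2047. The median was 0 in both groups, so again a minority of cells carried the difference. By genes listed it was 1.45, 1.91 and 4.10 from the fewest to the most. Ear genes are near-identical copies, and reads may have been split among them, so the name Ear2 is uncertain. Of 5 markers of eosinophils, which also make such ribonucleases, Prg2, Epx and Il5ra were listed in no Fn1-listed cell, and 2 of 64 cells listed Siglecf or Ccr3.

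Genes of monocyte-derived cells were mostly higher. Of the 14 genes on a list of monocyte origin, 12 could be read, of which 11 were higher in Fn1-listed cells (median difference 0.65), and 4 passed the size rule, none of them downward, where over all genes read 56.4% were higher and 3.3% passed upward. S100a4 (chr3:90603771-90606045, plus strand), a calcium-binding protein of migrating cells, was listed in 54 of 64 Fn1-listed cells (84.4%, interval 73.1 to 92.2) and in 33 of 61 others (54.1%, interval 40.8 to 66.9). Its median RPKM was 200.2 in Fn1-listed and 5.21 in other baseline cells, while the highest values, 1564 and 1569, were alike. S100a4 was thus listed in a larger share of Fn1-listed cells, with a similar top value. Ccr2 (chr9:124101950-124113557, plus strand), the receptor by which monocytes leave the marrow and enter tissue, was listed in 52 of 64 Fn1-listed (81.3%, interval 69.5 to 89.9) and 38 of 61 other cells (62.3%, interval 49.0 to 74.4), with medians of 102 and 6.38 RPKM. Its difference was 1.53, with 1.62 and 1.54 in the 2 stretches, and 0.52, 0.92 and 3.18 from the fewest to the most genes listed. For S100a4 these were 0.78, 2.43 and 2.80. S100a6 (8.50 against 7.23) and Ifitm6 (2.98 against 1.51) were the other 2 that passed the rule.

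The markers of blood monocytes themselves were present in few of the cells. Ly6c2, which marks classical monocytes in blood, had a difference of 0.69, and Plac8 one of 0.99 with 23 of 64 Fn1-listed and 14 of 61 other cells listed. At least 3 of 6 classical monocyte markers, Ccr2 among them, were listed in 15 of 64 Fn1-listed cells (23.4%, interval 13.8 to 35.7), in 7 of 61 others (11.5%, interval 4.74 to 22.2) and, in the regression group, in 39 of 113 (34.5%, interval 25.8 to 44.0). The intervals of the baseline groups overlap. For nonclassical monocytes the counts were 14 of 64, 9 of 61 and 3 of 113. Among other genes past the size rule, Gda, a guanine deaminase of purine breakdown, was listed in 52 of 64 Fn1-listed and 27 of 61 other cells and had a difference of 2.21 (2.28 and 2.15 in the stretches). Ccl6, a chemokine of myeloid cells, was at 9.10 ± 3.33 against 7.25 ± 4.19. The lysozyme genes Lyz1 and Lyz2, near-identical copies whose reads may be mixed, differed by 1.53 and 1.16.

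**Figure D3:**
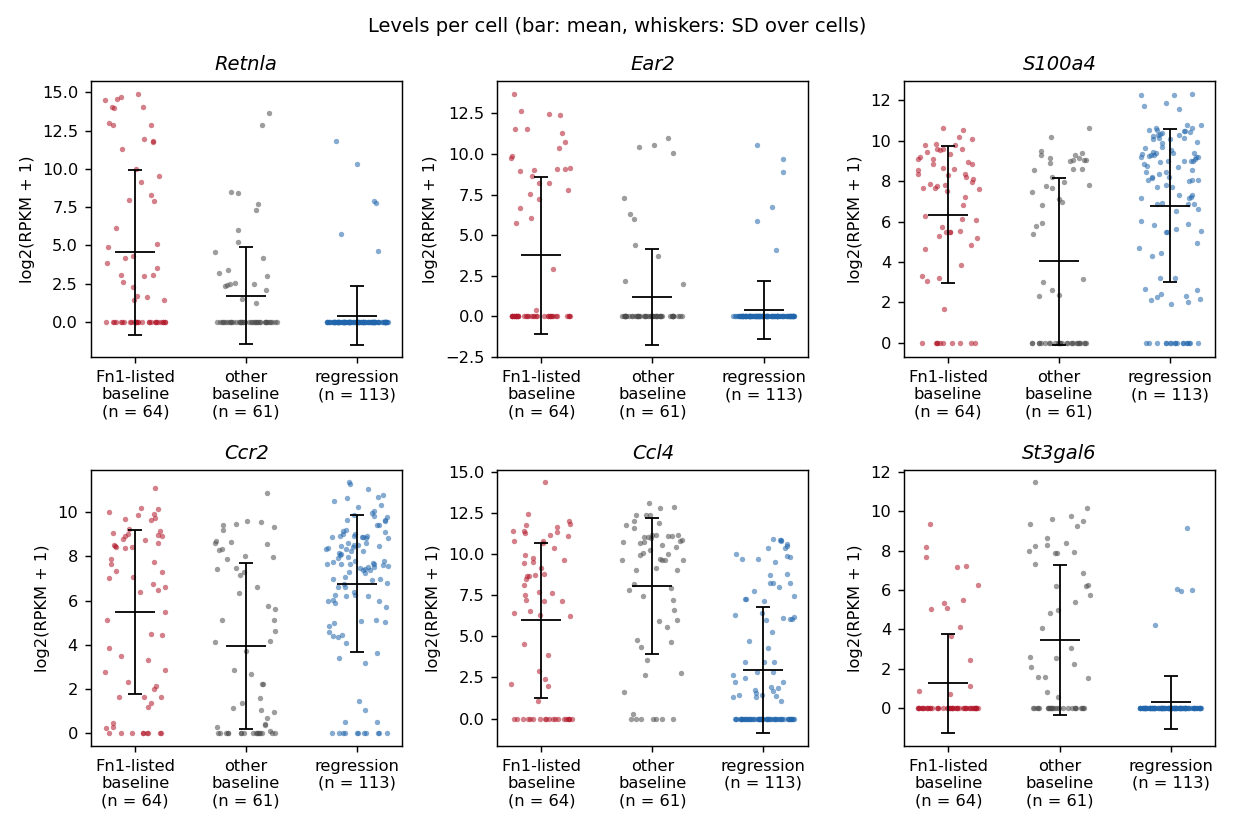
Level of 6 genes in each cell, as log2(RPKM + 1), in 64 Fn1-listed baseline cells, 61 other baseline cells and 113 regression cells; horizontal bars are means and whiskers are SDs over cells. Retnla and Ear2 show a set of high cells mainly in the Fn1-listed group (means of 4.55 and 3.76, against 1.72 and 1.21 in other baseline cells), whereas S100a4 and Ccr2 are lacking in fewer Fn1-listed than other baseline cells.

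Retnla, Ear2 and Ccr2 were often listed in the same cell. This combination was picked after its values were seen. All 3 were listed in 19 of 64 Fn1-listed cells (29.7%, interval 18.9 to 42.4), in 2 of 61 other baseline cells (3.28%, interval 0.400 to 11.3) and, among 113 regression cells, in 1 (0.885%, interval 0.0224 to 4.83). Cells 21 to 92 held 9 of 34 such cells among the Fn1-listed and 2 of 35 among the others, and cells 112 to 167 held 10 of 30 and 0 of 26 (interval up to 13.2%). They were 3 of 19 Fn1-listed and 2 of 23 other cells among those with the fewest genes, 3 of 19 and 0 of 22 in the middle part, and 13 of 26 and 0 of 16 among those with the most. By Fn1 level, they were 4 of 22 cells at 1 to 10 RPKM, 4 of 19 at 10 to 100 and 11 of 23 at 100 or more. The 19 cells listed a median of 3177 genes, against 2457 in the remaining 45 Fn1-listed cells.

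Beyond the genes that picked them, these 19 cells listed Cd226 in 42.1%, against 4.44% of the other 45 Fn1-listed cells, 3.28% of other baseline cells and 0 of 113 regression cells (interval up to 3.21%). Cd226 is an adhesion receptor found, along with Retnla and Ear2, on monocyte-derived macrophages of the pleural and peritoneal cavities of mice. Cfp, or properdin, a complement regulator, was at 7.45 ± 2.52 in the 19 cells, 4.01 ± 3.85 in the other 45 and 4.31 ± 4.05 in the other baseline cells. Cd74, the invariant chain of class II antigen presentation, was at 12.2, 10.9 and 11.1, and H2-Aa, a class II chain, at 10.9, 9.28 and 9.37. Their median levels were closer, at 12.8, 12.4 and 13.2 for Cd74 and 12.0, 11.4 and 11.8 for H2-Aa. Class II mRNA was thus high in most baseline cells and not particular to the 19. Trem2, the lipid receptor of foamy plaque macrophages, was at 5.73, 5.82 and 5.50. The 19 cells were thus near the rest in Trem2, and 94.7% of them listed Adgre1. They also listed more genes, and the part of detection in these shares was not tested.

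At least 3 of the 6 cavity macrophage markers (Cd226, Retnla, Ear2, Itgax, Cfp and Clec4a3) were listed in 43 of 64 Fn1-listed cells (67.2%), 30 of 61 other baseline cells (49.2%) and 18 of 113 regression cells (15.9%). These names were in the marker list because earlier results of these data had raised them, so the count describes and does not add support. On a longer list of serosal macrophage genes, 10 could be read, 7 were higher and 2 passed the size rule, Retnla and Ear2 themselves. Over all genes read, 56.4% were higher and 3.3% passed the rule upward. The median difference of the list was 0.39, with 0.16 and 0.54 in the 2 stretches. Cfp differed by 0.73, Cd226 by 0.68 and Clec4a3 by 0.49, while Itgax differed by -0.42 and Cxcl13 by -0.55. Cd226 was listed in 15.6% of Fn1-listed and 3.28% of other baseline cells, and Cxcl13 in 0% and 6.56%. Each of them passed the filter on list members only through the group where it was higher. The filter itself therefore favoured the sign of Cd226 and of Cxcl13. Gata6, the transcription factor of large peritoneal macrophages, was at 0 in every baseline cell.

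Matrix genes were mostly slightly higher in Fn1-listed cells. Of 18 genes for matrix and matricellular proteins, 14 could be read (5% of either group) and 14 were higher in Fn1-listed cells, with a median difference of 0.47. Over the genes read at 25%, 56.4% were higher and 3.3% passed the size rule upward. In this list 1 gene passed it. That gene was F13a1, the A chain of coagulation factor XIII, which cross-links fibrin and fibronectin, at 4.60 ± 3.49 against 3.28 ± 3.73 and listed in 47 of 64 and 31 of 61 cells. Ecm1 (0.94), Anxa2 (0.93) and Emilin2 (0.78) came next. Thbs1, a matricellular protein that was near universal in regression cells (109 of 113), was listed in 12 of 64 Fn1-listed and 7 of 61 other baseline cells. The fibronectin receptors did not differ together. Of 13 read, 9 were higher and the median difference was 0.19, with 0.31 and -0.07 in the 2 stretches: the integrin chains Itga5 (0.35), Itgb1 (0.23) and Itga4 (0.19) were close to 0, Cd44 was at 0.89, and Sdc4, a heparan sulfate receptor for fibronectin, passed the size rule downward at -1.04. Among proteases, Adam8 (1.16), a membrane metalloprotease of leukocytes, passed the size rule, while Mmp12, the macrophage elastase, had a difference of -0.96. In TGF-beta signalling, a known inducer of Fn1, 7 of 13 genes read were higher (median 0.12, with 0.23 and -0.27 in the 2 stretches), and the 1 past the size rule was Skil, an inhibitor of Smads, at -1.38.

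Several enzymes of glycolysis were higher. Of 16 genes read on a glycolysis and hypoxia list, 13 were higher (median 0.41) and 3 passed the size rule: Pgk1 (3.59 ± 3.62 against 1.70 ± 2.73), Ldha (5.61 ± 3.67 against 4.22 ± 3.89) and Pkm (6.56 against 5.22). With cells split at Fn1 above 0 against exactly 0, Ldha turned to -0.069. Over all genes read, 56.4% were higher and 3.3% passed the rule upward. Other genes of the list that hypoxia can induce varied and did not pass, with Hk2 at 0.75, Pdk1 at 0.52, Slc2a1 at 0.30, Bnip3 at -0.06 and Hilpda at -0.22. Hif1a, the oxygen-regulated transcription factor, differed by 0.67 and was listed in 38 of 64 Fn1-listed and 19 of 61 other cells. Genes of the cytoskeleton were also higher, 12 of 15 with a median of 0.20, led by Ahnak (1.15), Tmsb10 (1.05), Capg (1.03) and Vim (1.01), all past the size rule. In the lipid-laden list 9 of 14 were higher, near the share of all genes, and its median of 0.22 was -0.12 in cells 21 to 92 and -0.06 in cells 112 to 167. Its members lay at opposite ends: Lpl, the lipoprotein lipase that plaque macrophages secrete, was higher by 1.61 (median RPKM of 62.3 against 5.30), whereas Abcg1, a cholesterol exporter, was lower by 1.28 (7.63 against 8.91). Among resident macrophage genes 7 of 14 were higher (median 0.01), with F13a1, Pf4 (1.12) and Folr2 (1.03) past the size rule, and Lyve1 listed in 22 of 64 and 19 of 61 cells.

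Lower in Fn1-listed cells were chemokines of the inflammatory response. Of 12 inflammatory genes read, 10 were lower, with a median difference of -0.48, and 3 passed the size rule: Ccl4 (-2.06), Ccl3 (-1.48) and Ccl5 (-1.08). Over all genes read, 56.4% were higher and 2.49% passed the rule downward. Ccl4 (chr11:83662584-83664683, plus strand) ran from 0 to 21238 RPKM with a median of 146 in Fn1-listed cells, and from 0 to 8778 with a median of 814 in the others. From the fewest to the most genes listed its difference was -4.18, -1.95 and -0.52. It was listed in 45 of 64 Fn1-listed (interval 57.6 to 81.1%) and 53 of 61 other cells (interval 75.8 to 94.2%). The cytokines Il1b (-0.64) and Tnf (0.11) did not pass. Against the same 56.4%, interferon-induced genes were mostly lower, 12 of 15 with a median of -0.37, and none passed the size rule. Ifi44 (listed in 1.56% of Fn1-listed and 11.5% of other cells), Isg15, Ifit1 and Ifit3 reached the 5% filter only through the other cells. The filter itself therefore favoured their lower sign. The median of the list turned to 0.071 among genes listed in 50% of either group and to 0.16 for cells with an Fn1 RPKM of 100 or more. Ifit2 was listed in 4 of 64 and 12 of 61 cells. Of 15 genes induced by tissue digestion 11 were lower, with a median of -0.40, but the median was 0.09 in cells 21 to 92 and -0.34 in cells 112 to 167. Fos differed by 0.17 and -2.16 in the 2 stretches and Atf3 by 0.09 and -2.28, while Hsp90aa1 was higher by 1.10 and passed the rule.

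The lowest single gene was St3gal6 (chr16:58468125-58524243, minus strand), a sialyltransferase, at -2.21. It was listed in 14 of 64 Fn1-listed cells (21.9%, interval 12.5 to 34.0) and in 33 of 61 others (54.1%, interval 40.8 to 66.9). Asah1, the lysosomal acid ceramidase, followed at -2.09, and Cd63 (-1.53), a tetraspanin of endosomes, the proton pump subunit Atp6v1d (-1.54) and the nuclease Pld4 (-1.52) were also among the 12 lowest. From the fewest to the most genes listed, Asah1 differed by -3.77, -3.57 and -0.04, Cd63 by -5.44, 0.40 and -0.47, and Pld4 by -4.21, 0.21 and -1.31. Atp6v1d differed by -2.72, -2.32 and -0.01. The lower values of Cd63 and Pld4 thus lay mainly in the cells with the fewest genes. Those of Asah1 and Atp6v1d lay in the parts with the fewest genes and in the middle. Transcription factors of macrophage differentiation were there as well, Runx1 (3.11 ± 2.54 against 4.87 ± 2.74) and Mef2c (2.67 ± 2.86 against 4.25 ± 3.36). Over the same parts Runx1 differed by -3.36, -1.51 and -1.04, and Mef2c by -1.55, -1.78 and -1.96. Lamp1, a lysosomal membrane protein, was higher by 1.76, but with cells split at Fn1 above 0 against exactly 0 it turned to -0.70.

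The 22 cells with an Fn1 RPKM of 1 to 10 bore much of what was lower. In cells with Fn1 under 1, 1 to 10, 10 to 100 and 100 or more, Ccl4 had mean log2 levels of 8.04, 3.44, 7.57 and 7.07. Without the 22 cells its difference was -0.74, and that of Ccl3 was -0.41, Cd63 -0.65 and Abcg1 -0.74. St3gal6 stayed low, at 3.46, 0.48, 1.79 and 1.52 over the 4 levels, as did Mef2c at 4.25, 2.76, 2.34 and 2.87. Runx1, at 4.87, 2.50, 2.37 and 4.32, was lower mainly at an Fn1 RPKM of 1 to 100. The higher genes varied in how they followed Fn1. Retnla was at 1.72, 1.88, 5.13 and 6.62, S100a4 at 4.03, 5.34, 6.01 and 7.59, and Ccr2 at 3.95, 4.30, 4.28 and 7.61, so that Ccr2 stood out among the cells with the most Fn1 alone. Ear2 was at 1.21, 3.53, 2.38 and 5.14, and Tmem147 and Mcts1 were already near their top level at 1 to 10 (3.35 and 3.49). Set against cells under 1, the cells at 10 or more had 445 genes higher and 41 lower by the size rule, and their median number of genes listed was higher by 552. Of the 23 cells at 100 or more, 16 were in the part with the most genes. The 4 in the middle part had Retnla at 0.76, Gda at 1.51 and Ccr2 at 4.62, against 1.21, 2.73 and 4.61 in cells under 1, while S100a4 was higher (7.14 against 3.71). In the parts with the fewest and the most genes all of these genes were higher.

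**Figure D4:**
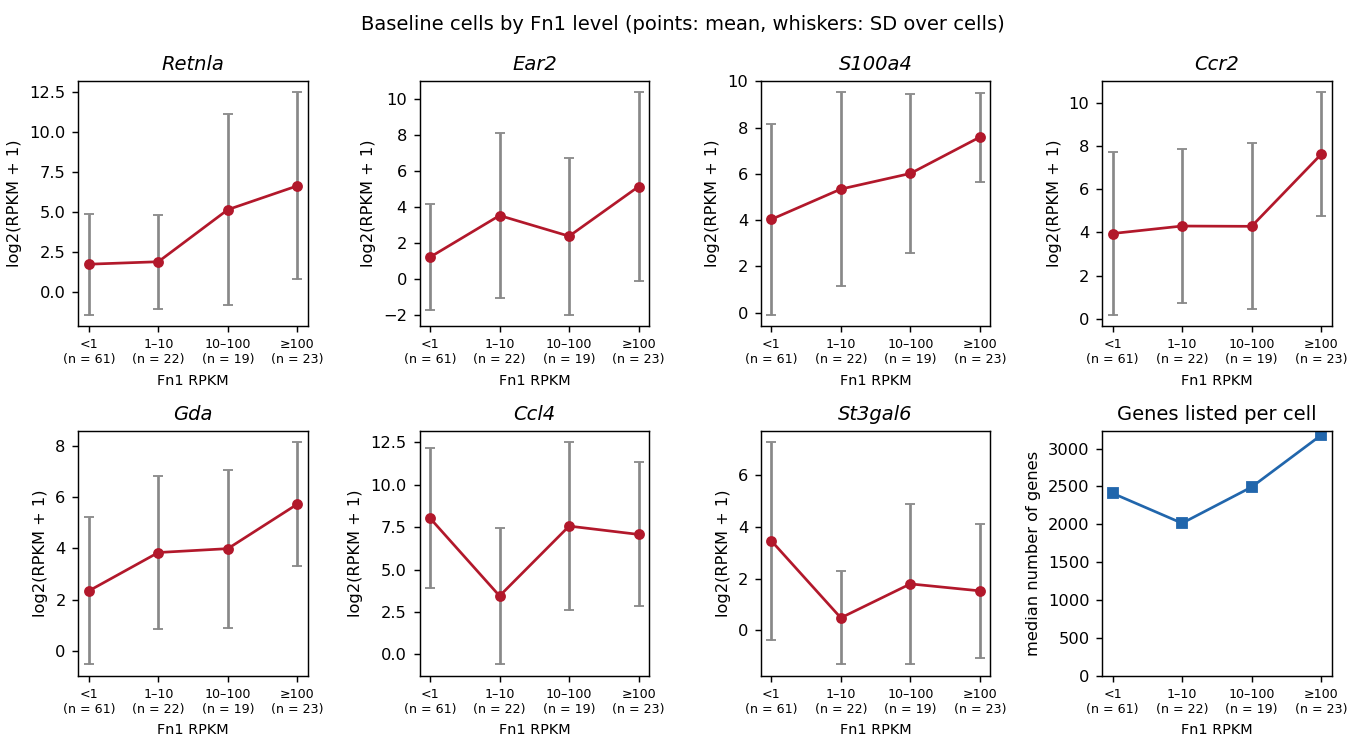
Baseline cells by Fn1 RPKM (x axis, 4 levels, with the number of cells): mean log2(RPKM + 1) ± SD over cells of 7 genes, and the median number of genes listed per cell in the last panel. Retnla, S100a4 and Gda climb with Fn1, Ccr2 is higher in the top level only (7.61), Ccl4 dips at 1 to 10 (3.44), and the number of genes listed has the same dip (2013). Of the 23 cells in the top level, 16 are in the part of the cells with the most genes listed.

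Whether Fn1-listed baseline cells resemble regression cells was read without using any baseline cell on both sides. For each stretch of baseline cells, the 50 genes highest and the 50 lowest in regression cells were chosen against the other stretch, leaving out Fn1 and Apoe. In cells 21 to 92, 39 of 50 regression-high genes (78.0%) were higher in Fn1-listed cells, against 56.4% of all genes read, and 32 of 50 regression-low genes (64.0%) were lower, against 43.6% of all. In cells 112 to 167 the counts were 30 of 50 (60.0%), against 50.0% of all genes, and 37 of 50 (74.0%), also against 50.0%. The 2 readings are not independent, since they share the 113 regression cells, 34 of 50 high genes and 28 of 50 low genes. Of the shared genes, 16 high and 17 low ones went the way of regression in both stretches. The mean score of a cell, its mean over the high genes minus its mean over the low genes, was -1.54 ± 1.21 in Fn1-listed cells, -2.27 ± 1.16 in other baseline cells and 3.19 ± 1.90 in regression cells for cells 21 to 92. For cells 112 to 167 it was -2.24 ± 1.59, -3.29 ± 1.32 and 2.31 ± 1.93. Fn1-listed cells therefore lay nearer to regression cells by 0.73 and 1.05, less than the SD over cells, which is 13.4% and 18.7% of the gap between other baseline cells and regression cells. The regression cells scored here also served to choose the lists, so their scores are not held out. These scores, the gap and the regression cut-offs below can therefore be too high. Above the lowest regression cell lay 26 of 34 Fn1-listed and 15 of 35 other cells in the first reading, and 18 of 30 and 9 of 26 in the second. Above the 10th percentile of regression cells lay 3 of 34 Fn1-listed and 1 of 35 other cells in the first reading, and 4 of 30 and 0 of 26 in the second, so the ranges overlapped at the low end of regression.

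The shift was uneven over genes listed and did not grow with Fn1. Among the cells with the fewest genes, scores were -0.75 in Fn1-listed and -2.58 in other cells of 21 to 92, and -1.42 and -3.04 in those of 112 to 167. In the middle part they were -1.96 and -2.03, and -3.84 and -3.90, where the last pair rests on 3 Fn1-listed cells. Among the cells with the most genes they were -1.42 and -2.13, and -2.58 and -2.88. Cells at an Fn1 RPKM of 1 to 10 scored -1.28 and -2.02 in the 2 readings, and cells at 100 or more scored -1.42 and -2.45. Among the 15 nearest other cells, found in 15 principal components made from 2000 variable genes other than Fn1 and Apoe, Fn1-listed cells had a mean of 2.69 regression cells, other baseline cells 1.84 and regression cells 12.7. Regression cells were the majority of neighbours for 3 of 64 Fn1-listed and 3 of 61 other baseline cells.

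**Figure D5:**
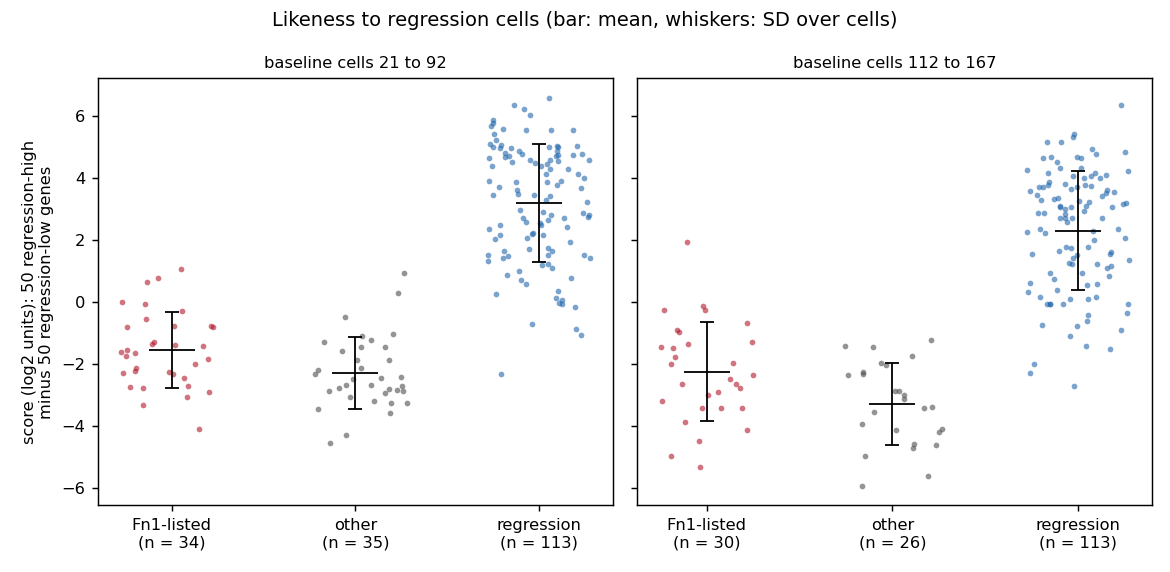
Score of each cell (mean log2(RPKM + 1) of 50 regression-high genes minus that of 50 regression-low genes, lists chosen against the baseline stretch not shown in the same panel) for Fn1-listed baseline, other baseline and regression cells; bars are means and whiskers SDs over cells. The Fn1-listed cells (-1.54 and -2.24) sit slightly above other baseline cells (-2.27 and -3.29) and well below most regression cells (3.19 and 2.31). The regression cells also served to choose the lists, so their scores can be too high.

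Gene by gene, the comparisons with other baseline cells and with regression cells share baseline cells, so levels are given side by side without a count. Some genes that set regression cells apart were rare in both baseline groups and others were not. Arg1, an enzyme that consumes arginine, was listed in 1 of 64 Fn1-listed, 2 of 61 other baseline and 94 of 113 regression cells. Saa3, an acute-phase protein, was listed in 4, 2 and 56 cells of the same groups, and Hilpda, which coats lipid droplets, in 7, 8 and 60. Apoe, which the donors of both groups lack and the hosts of regression grafts carry, was listed in 6 of 64, 3 of 61 and 112 of 113 cells. More widely listed were Ccr1, a chemokine receptor, in 20, 19 and 86 cells, Clec4d, a C-type lectin receptor, in 24, 16 and 93, Hif1a in 38, 19 and 95, and Ctsl, a cathepsin, in 40, 37 and 103.

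Several genes of the Fn1-listed cells did lie between the other groups. S100a4 was at 6.35 in Fn1-listed, 4.03 in other baseline and 6.78 in regression cells, Ccr2 at 5.48, 3.95 and 6.77, Gda at 4.56, 2.35 and 5.43, Ccl6 at 9.10, 7.25 and 10.8, Ldha at 5.61, 4.22 and 6.93, and Pf4, a chemokine, at 5.57, 4.45 and 8.10. On the low side, Ccl4 was at 5.97, 8.04 and 2.93, Cd72, an inhibitory receptor, at 6.09, 7.43 and 1.69, and St3gal6 at 1.25, 3.46 and 0.28. Ccr2 and S100a4 were listed together in 44 of 64 Fn1-listed (68.8%), 20 of 61 other baseline (32.8%) and 86 of 113 regression cells (76.1%). The leading genes went opposite to regression. Retnla was at 4.55, 1.72 and 0.43, and Ear2 at 3.76, 1.21 and 0.41, each being listed in 6 of 113 regression cells (5.31%, interval 1.97 to 11.2). Lpl was at 5.15, 3.54 and 1.98. Cd74 was at 11.3, 11.1 and 7.30, so in this class II gene the baseline groups were close. Tetraspanins differed among themselves, with Cd81 at 7.33, 7.80 and 1.83, Cd9 at 7.04, 7.74 and 4.78, and Cd63 at 6.85, 8.38 and 5.91.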

How the data were processed

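Single sorted macrophages were captured on a Fluidigm C1 chip, with SMARTer cDNA and Nextera XT libraries, per the labels' protocols, whose wording mentions islet cells where the other labels give the aortic arch. RPKM values of 24475 genes in 244 libraries were deposited by the authors. Per the submitters' processing notes, CASAVA 1.8.2, FastQC and build mm10 were used. Not given in the sources used here are the aligner, the annotation and the RPKM program. Molecular identifiers were not used, and each value includes noise from amplification.

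Columns were matched to samples by the number in the title. Of 116 regression cells, 113 listed 1000 genes or more and were kept. No count model was applied, since RPKM is not a count. Values were compared as log2(RPKM + 1). Doublets were not called. Depth was estimated from steps between low values of 5726 genes with 1 transcript. In the median library 37.2% of low values came within 0.1 of whole reads, so these depths are rough and are given for the 115 libraries where 2 sets of genes agreed within 10%.

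The members and lists were chosen with earlier results of these data known. Named genes are the 12 highest and 12 lowest that passed the size rule with the same sign in the log2 ratio of mean RPKM, leaving out Fn1, predicted genes, receptor segments, Rn45s, Xist and Y genes. To these come genes fixed by name and, from each list, the 2 members whose difference was largest in size. Others are examples picked with their values known. All 323 symbols of the 18 programme and 16 cell type lists were in the table. A member of a list was read if 5% of either group listed it. The eosinophil, T and NK cell, endothelial, smooth muscle, mesothelial, platelet and erythroid lists had no such member. Positions are from GENCODE vM21. Alternatives were other pseudocounts, filters, scalings and Fn1 thresholds, each stretch alone, and cells with at least 2000 genes. The computation was tested on simulated data. Python 3.11.15, numpy 2.4.6, pandas 2.3.3, scipy 1.17.1 and scikit-learn 1.9.0 were used.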

Additional observations from a re-analysis of the deposited data

Results flagged for a closer look

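2 rows of the table that belong to no mouse gene were listed in baseline cells. Neo, a drug resistance gene used in making gene-targeted mice, was at RPKM of 1 or more in 1 of 64 Fn1-listed and 4 of 61 other baseline cells, with 0 of 113 regression cells (interval up to 3.21%). LacZ was listed in 1 of 64 Fn1-listed cells and 0 of 61 others.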

How the results depend on the processing

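The 135 higher and 102 lower genes depended on the scale. They were 17 and 15 with a pseudocount of 10, 491 and 264 with 0.1, and 384 and 319 by the log2 ratio of mean RPKM. They were 445 and 41 for an Fn1 RPKM of 10 or more against under 1, and 74 and 252 for above 0 against exactly 0. There were 737 higher genes at 100 or more against under 1, and 274 in cells with at least 2000 genes. In cells 21 to 92 alone, where only 1 stretch had to show the sign, 429 were higher and 212 lower, and in cells 112 to 167 alone 325 and 389. The excess of 207 in the median number of genes listed was 552 at an Fn1 of 10 or more, 768 at 100 or more, 409 in cells 112 to 167 and -256.5 for above 0 against exactly 0. The likeness score difference of 0.88 was 1.19 with a pseudocount of 0.1 and 0.46 for above 0 against exactly 0. The interferon median turned to 0.071 with a filter of 50% and to 0.16 at an Fn1 of 100 or more. For above 0 against exactly 0, the cavity macrophage median was -0.23, Lamp1 -0.70 and Ldha -0.069. Other causes were not tested. Over 15 settings, 1275 of 1335 values of 89 named genes and 220 of 270 list medians kept their sign. The reading against Fn1 of 100 or more and that without cells of other types were chosen after seeing the data. No paired analysis was possible because the labels number cells and pair none across groups.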
